A study of Mus musculus with 12 samples.

Results

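Steroid hormones are switched on and off within the liver by enzymes that oxidise, reduce or sulfate single positions of the steroid ring. The aldo-keto reductases of the AKR1C family reduce ketosteroids and oxidise hydroxysteroids, and in the mouse their genes lie next to each other in a single cluster. *Akr1c18* encodes the hydroxysteroid dehydrogenase that turns progesterone into a metabolite with little hormonal activity and is best known from the ovary at the end of pregnancy. The other enzymes described here set the activity of glucocorticoids (*Hsd11b1*), of estrogens and androgens (*Hsd17b2*, *Akr1c6*) and of estrogen through sulfation (*Sult1e1*).

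The expression of 9 steroid-converting enzymes was examined in livers of term mouse fetuses with and without PPARα, the nuclear receptor for fatty acids that *Ppara* encodes. The list, drawn up by name, held *Akr1c6*, *Akr1c14*, *Akr1c18*, *Akr1c19*, *Akr1c20*, *Hsd11b1*, *Hsd17b2*, *Srd5a1* and *Sult1e1*. Of these, 8 were measured among 19938 genes, each by 1 probeset, and *Srd5a1*, a steroid reductase, was not analysed here. The arrays compared 6 *Ppara*-/- with 6 *Ppara*+/+ whole livers at embryonic day E19.5, with no treatment in either group and 1 liver per array. Both parents of each litter were heterozygous, and the fetuses were taken by cesarean section. The null allele is constitutive, so PPARα was missing from every fetal tissue and not from the liver alone. The labels give the strain as SV129, whereas the methods name a C57BL/6 background, and in the methods some livers of a genotype shared a litter, which the labels do not identify. Values are log2 signals, on which 1 unit is a 2-fold change, and the differences given are *Ppara*-/- minus *Ppara*+/+.

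The *Ppara* signal lay between 9.66 and 9.94 in *Ppara*-/- and between 10.71 and 10.95 in *Ppara*+/+ livers, a fall of 2.01-fold (limma adjusted p = 3.6e-08). Array medians lay between 6.71 and 6.75, and precision rests on 6 arrays a genotype. Albumin and the other hepatocyte markers did not differ by genotype at the threshold used, with 0 of 8 called. All 8 stood at the 99.6th percentile of mean signal or above, and whether such bright probesets can show a small change was not tested. Several livers stood apart from their group. On the first principal component, *Ppara*-/- mouse 1 lay at -1.9 and *Ppara*+/+ mouse 6 at 3.3, past each other, while the other livers of each genotype were separate. *Xist* and Y-linked genes marked 5 *Ppara*-/- and 3 *Ppara*+/+ fetuses as female.

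*Ppara*+/+ mouse 3 carried a raised signal of some of the genes used by steroid-making cells of the adrenal cortex and gonad. *Star*, which moves cholesterol into mitochondria, was at 7.97 in this liver and between 5.60 and 5.80 in the other 11. *Cyp11b1*, which completes corticosterone synthesis, was at 8.52 against 4.46 to 4.97, and *Cyp21a1*, an earlier enzyme of the same route, was at 9.05 against 5.15 to 5.52. *Cyp11a1*, which cleaves the cholesterol side chain, was at 7.64 against 4.68 to 5.21. Of the other measured markers, *Mc2r* was at 5.07 against 3.91 to 4.73. *Cyp11b2* (6.18), *Cyp17a1* (9.57), *Nr5a1* (6.14) and *Mrap* (8.00) were not raised beyond the range of the other livers. *Akr1c18* is also a gene of steroid-making tissues, so its comparison is given below with and without this liver. The mean over the 9 measured markers was 7.57 in mouse 3 and 5.96 in the lowest *Ppara*+/+ liver. In the *Ppara*-/- livers this mean ran from 5.80 to 5.99. It includes *Cyp17a1* and *Mrap*, which were called lower in *Ppara*-/- livers.

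**Figure D1:**
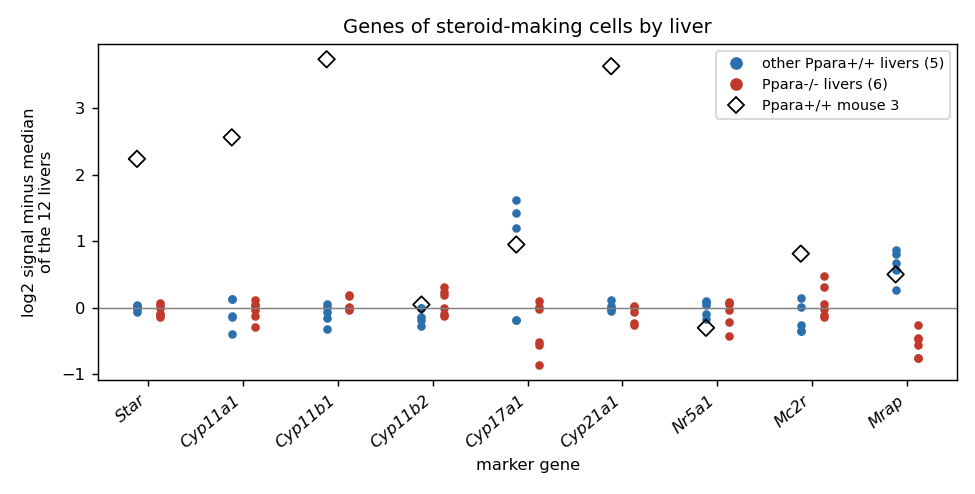
Signal of 9 genes of steroid-making cells in each liver, as the log2 signal minus the median of the 12 livers. Points are single livers, and the open diamond is *Ppara*+/+ mouse 3, which lies 2.24 to 3.75 above the median of the other livers for *Star*, *Cyp11a1*, *Cyp11b1* and *Cyp21a1*.

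*Akr1c18* was lower in all 6 *Ppara*-/- livers than in any *Ppara*+/+ liver. In *Ppara*-/- mice 1 to 6 its log2 signal was 5.16, 4.94, 4.99, 4.82, 4.96 and 4.95. In *Ppara*+/+ mice 1 to 6 it was 7.82, 7.30, 7.73, 7.03, 6.71 and 5.67. The *Ppara*-/- values were nearly level, and the *Ppara*+/+ values were spread over 2.15 units, with mice 1 and 3 highest and mouse 6 closest to the *Ppara*-/- livers. The means were 4.97 ± 0.11 (SD, n = 6) and 7.04 ± 0.79 (SD, n = 6), a fall of 4.20-fold with a log2 difference of -2.07 (SE 0.27, 95% interval -2.66 to -1.48, limma adjusted p = 3.6e-04). This was the tenth largest fall of all genes (rank 10). Without *Ppara*+/+ mouse 3 the difference was -1.93 (SE 0.27, limma adjusted p = 9.6e-04). *Ppara*+/+ mouse 1, whose *Akr1c18* signal was the highest, did not carry the raised *Star*, *Cyp11a1*, *Cyp11b1* or *Cyp21a1* signals of mouse 3. The part of steroid-making tissue in the *Akr1c18* difference was not tested. In whole liver, fewer cells of a type and less RNA per cell cannot be told apart.

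The mean *Akr1c18* signal of the *Ppara*-/- livers stood at the 18.3rd percentile of all genes in those livers, and that of the *Ppara*+/+ livers at the 48.7th percentile. The table holds no detection calls, so whether the *Ppara*-/- signal lies above background is unknown.

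*Akr1c20*, a liver aldo-keto reductase of the same cluster, was the other enzyme called lower. Its log2 signal was 9.55, 8.90, 8.96, 8.46, 8.69 and 8.98 in *Ppara*-/- mice 1 to 6 and 9.87, 9.94, 10.01, 9.95, 9.69 and 9.13 in *Ppara*+/+ mice 1 to 6. The groups overlapped through *Ppara*-/- mouse 1 and *Ppara*+/+ mouse 6, and 5 of 6 *Ppara*-/- livers lay below every *Ppara*+/+ liver. The difference was -0.84 (SE 0.17, 95% interval -1.21 to -0.48), a fall of 1.79-fold (limma adjusted p = 0.0082). Without *Ppara*+/+ mouse 3 it was -0.79 (limma adjusted p = 0.022), and without both *Ppara*-/- mouse 1 and *Ppara*+/+ mouse 6 it was -1.10 (limma adjusted p = 1.3e-05).

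**Figure D2:**
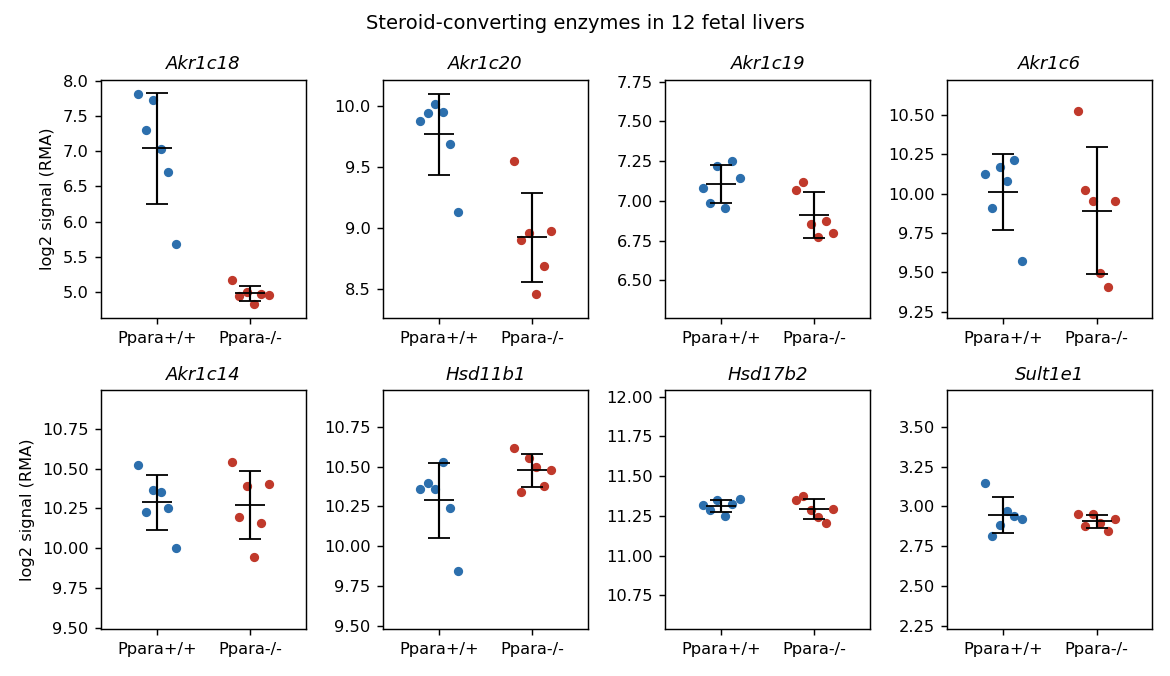
Log2 signal of the 8 measured enzymes in 6 *Ppara*+/+ and 6 *Ppara*-/- livers, each panel with its own vertical range. Points are single livers and bars are the mean ± SD, and *Akr1c18* alone shows no overlap between genotypes.

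Among the other cluster enzymes of the list, *Akr1c19*, a hydroxysteroid dehydrogenase, ran from 6.77 to 7.12 in *Ppara*-/- and from 6.96 to 7.25 in *Ppara*+/+ livers. Its difference of -0.19 (95% interval -0.35 to -0.04) did not pass the adjustment over all genes (limma adjusted p = 0.13), although the exact permutation test of this gene alone gave p = 0.035. *Akr1c6*, which reduces estrone and androgen precursors, differed by -0.12 (95% interval -0.47 to 0.23, limma adjusted p = 0.77). Its *Ppara*-/- values, from 9.41 to 10.52, enclosed the whole *Ppara*+/+ range of 9.57 to 10.21. *Akr1c14*, the hydroxysteroid dehydrogenase that reduces dihydrotestosterone and dihydroprogesterone, differed by -0.02 (95% interval -0.23 to 0.20, limma adjusted p = 0.96). For *Akr1c14* a fall as large as that of *Akr1c20* lies outside the interval.

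The enzymes outside the cluster were not called either. *Hsd11b1*, which regenerates active glucocorticoid in the liver, was at 10.34 to 10.62 in *Ppara*-/- and at 9.84 to 10.53 in *Ppara*+/+ livers. Its difference of 0.19 (95% interval -0.01 to 0.39, limma adjusted p = 0.28) was the only positive one among the 8, and the lowest value was again that of *Ppara*+/+ mouse 6. *Hsd17b2*, which oxidises estradiol and testosterone to weaker steroids, had the tightest values, from 11.20 to 11.38 over all 12 livers, and differed by -0.02 (95% interval -0.11 to 0.07, limma adjusted p = 0.83). *Sult1e1*, the estrogen sulfotransferase, gave 2.81 to 3.15 over all livers, at the 0.687th percentile of mean signal. That is among the lowest signals of the table, and whether it lies above background is unknown. Its difference was -0.04 (95% interval -0.15 to 0.07, limma adjusted p = 0.77).

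Over the list, 2 of 8 measured enzymes were called lower and 0 higher, beside 3.82% of all genes called lower and 3.42% called higher. The groups did not overlap, with all *Ppara*-/- below all *Ppara*+/+ livers, for 1 of 8 enzymes and for 2.29% of all genes. The median difference was -0.08 over the 8 and 0.008 over all genes. As a description, since *Akr1c18* leads the list and was chosen with its fall known, its change was lower than that of the other 7 enzymes by 1.23 on the log2 scale (SE 0.23, *Akr1c20*) to 2.26 (SE 0.26, *Hsd11b1*).

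The gene order of mouse assembly GRCm38.p6 on chromosome 13 places *Akr1c14*, *Akr1c18*, *Akr1c13*, *Akr1c19*, *Akr1c12*, *Akr1c6*, *Akr1c20*, *Akr1c21* and *Akr1e1* side by side. The 2 genes called lower are not neighbours in this order. *Akr1c18* stands between *Akr1c14* and *Akr1c13*, which differed by -0.02 (SE 0.10) and -0.01 (SE 0.06), and *Akr1c20* stands between *Akr1c6*, given above, and *Akr1c21*, at -0.09 (SE 0.08). *Akr1c21* stood at the 5.88th percentile of mean signal, and whether it lies above background is unknown. *Akr1c12* differed by -0.02 (SE 0.07) and *Akr1e1* by -0.01 (SE 0.06). None of the 6 genes that flank the cluster in the window examined, *Net1*, *Tubal3* and *Ucn3* on 1 side and *Klf6*, *Pitrm1* and *Pfkp* on the other, was called by limma. The AKR1C genes are close relatives, and how far a probeset reads the transcripts of another member was not tested.

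**Figure D3:**
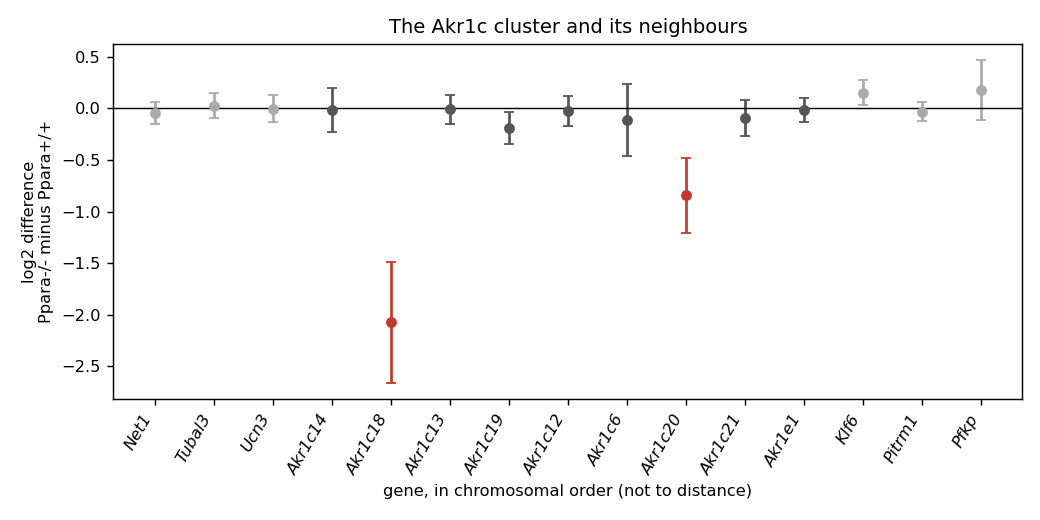
Log2 difference of each gene of the Akr1c cluster and its neighbours, in chromosomal order and not to distance, with 95% intervals. *Akr1c18* at -2.07 and *Akr1c20* at -0.84 (red) are the 2 genes called, among 9 cluster genes (dark grey) and 6 flanking genes (light grey).

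The sequence upstream of *Akr1c18* is shown because this gene lost most of its signal without PPARα, and that of its neighbour *Akr1c14* because it did not. PPARα binds as a pair with RXR to a direct repeat of the letters AGGTCA with 1 base between, written AGGTCANAGGTCA. Both are the RefSeq sequences of 250 bases before the gene start in GRCm38.p6, at chr13:4150647-4150896 on the minus strand for *Akr1c18* and at chr13:4059341-4059590 on the plus strand for *Akr1c14*, with any match to AGGTCA or TGACCT in capitals.
Akr1c18: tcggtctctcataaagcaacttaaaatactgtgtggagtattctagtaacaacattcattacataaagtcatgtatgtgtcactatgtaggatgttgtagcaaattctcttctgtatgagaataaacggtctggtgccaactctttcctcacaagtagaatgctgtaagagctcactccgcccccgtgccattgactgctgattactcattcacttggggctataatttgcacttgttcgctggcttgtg
Akr1c14: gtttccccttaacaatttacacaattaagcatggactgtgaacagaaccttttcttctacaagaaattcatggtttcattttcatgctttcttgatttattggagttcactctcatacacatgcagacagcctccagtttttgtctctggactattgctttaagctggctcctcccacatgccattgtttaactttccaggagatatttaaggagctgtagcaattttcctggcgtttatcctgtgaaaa
Neither stretch holds the letters on either strand. The window searched ran on for 50 bases past the start, and there *Akr1c18* has a single copy, beginning 28 bases into the transcribed sequence. It is shown within 30 bases at chr13:4150602-4150631 on the minus strand, with the copy in capitals.
Akr1c18: agagaatcttctAGGTCAgagcagtggctg
Of the 9 enzymes 7 had a sequence in the table, and *Akr1c20* and *Hsd17b2* did not. The single 6-letter copy was found in 2 of the 7, the other being *Sult1e1*, and in 16.0% of 27025 mouse promoters. The full repeat was found in 0 of the 7 and in 12 of all promoters, 0.0444%. A match of letters is no evidence of binding, and its absence here says only that these letters are not in this window.

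Fetuses carry animal numbers in the labels, and the *Ppara*+/+ signals of *Akr1c18* were lower at the higher numbers. In the 6 fetuses with the lowest numbers, 2 *Ppara*-/- livers at 4.94 and 5.16 stood against 4 *Ppara*+/+ livers from 7.03 to 7.82, a difference of -2.42 (limma adjusted p = 8.0e-04). In the 6 with the highest numbers, 4 *Ppara*-/- livers from 4.82 to 4.99 stood against 2 *Ppara*+/+ livers at 5.67 and 6.71, a difference of -1.26 that missed the threshold (limma adjusted p = 0.051). The genotypes did not overlap for *Akr1c18* in either set, and whether the difference itself changes with the number was not tested. All 6 fetuses with the highest numbers were marked as female, and every male fetus was among the 6 lowest. A contrast of the 2 sets is therefore also one of a mixed with an all-female set. For *Akr1c20* the genotypes were likewise separate in each set, at -0.72 (limma adjusted p = 0.090) and -0.64 (limma adjusted p = 0.19). With the 2 sets as a block, *Akr1c18* differed by -1.84 (limma adjusted p = 3.3e-04) and *Akr1c20* by -0.68 (limma adjusted p = 0.0080). With the sex score as a covariate the differences were -1.94 (limma adjusted p = 0.0016) and -0.76 (limma adjusted p = 0.029).

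**Figure D4:**
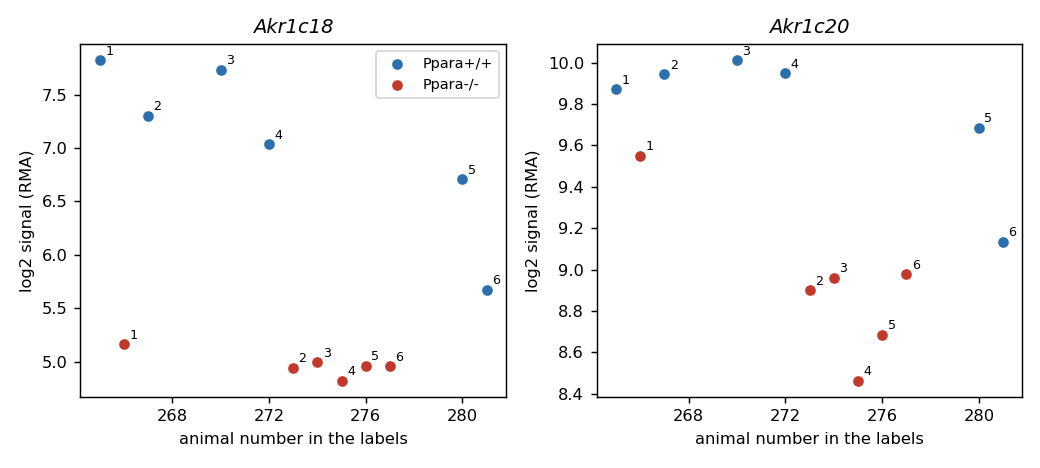
Log2 signal of *Akr1c18* (left) and *Akr1c20* (right) against the animal number of the labels, with each point marked by its mouse number. *Ppara*-/- livers lie at 4.82 to 5.16 for *Akr1c18* at every number, and *Ppara*+/+ livers run from 7.82 at the lowest number to 5.67 at the highest.

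How the enzymes varied from liver to liver within a genotype was described by correlations of their deviations from the genotype means over the 12 livers, which share their arrays and litters. By Pearson's r, *Akr1c20* was closest to *Akr1c14* (r = 0.87, Spearman's rho = 0.76) and *Akr1c6* (r = 0.87, rho = 0.62), which were not called. By rho it was closest to *Hsd11b1* (r = 0.76, rho = 0.79). *Akr1c18* was closer to *Hsd11b1* (r = 0.76, rho = 0.63) and *Akr1c20* (r = 0.70, rho = 0.75) than to *Akr1c6* (r = 0.47, rho = 0.27). *Akr1c19* followed *Hsd17b2* (r = 0.78, rho = 0.86). Since 98.1% of the squared deviations of *Akr1c18* came from *Ppara*+/+ livers, its values describe that genotype. Over all genes the closest to *Akr1c18* were *Ptprj* (r = 0.93, Spearman's rho = 0.91), *Nol7* (r = 0.92, rho = 0.78), *Lrrc8b* (r = 0.92, rho = 0.85), *Trpc6* (r = 0.92, rho = 0.79) and *Hs2st1* (r = 0.92, rho = 0.85), none of which differed by genotype in the limma test at the threshold used. They were picked as the highest r among all genes, and how high such picked values run by chance was not tested.

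Other genes that handle steroids were counted in 6 lists, to be read beside the 3.82% of all genes called lower and the 3.42% called higher. Of the other hydroxysteroid dehydrogenases, 5 of 19 measured were called lower, 1 higher and 13 neither, with a median difference of -0.07. The 3 largest falls were those of *Hsd17b4*, *Hsdl2* and *Hsd17b11*. *Hsd17b4*, the peroxisomal bifunctional enzyme of fatty acid β-oxidation, fell by 1.25 on the log2 scale (2.38-fold, limma adjusted p = 6.3e-08), from between 10.37 and 10.75 in *Ppara*+/+ to between 9.17 and 9.55 in *Ppara*-/- livers. *Hsdl2*, a peroxisomal relative, fell by 1.12 (2.17-fold, limma adjusted p = 1.2e-07), and *Hsd17b11*, a lipid droplet protein, fell by 0.95 (1.93-fold, limma adjusted p = 6.6e-07). In each of these 3 the genotypes did not overlap. Over the list this held for 5 of 19, with *Ppara*-/- below *Ppara*+/+ in each, beside 2.29% of all genes. *Hsd3b7*, an enzyme of bile acid synthesis, fell by 0.34 (limma adjusted p = 9.6e-04), and *Hsd17b6*, which oxidises androgens and retinol, fell by 0.94 (limma adjusted p = 0.027). *Hsd3b3*, a mouse form of the enzyme that makes ketosteroids from hydroxysteroids, rose by 0.17 (limma adjusted p = 0.034).

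Of the other aldo-keto reductases, 0 of 10 were called lower and 2 higher, with 7 of the 10 differences negative and a median of -0.02. Those called higher were *Akr1b10*, by 0.27 (limma adjusted p = 0.015), and the aldehyde reductase *Akr7a5*, by 0.19 (limma adjusted p = 0.025). *Akr1cl*, which lies outside the cluster, differed by -0.11 (SE 0.10). In the list of sulfation and glucuronidation, 2 of 18 were called lower and 0 higher. The differences of 12 of the 18 were negative, and the median was -0.10. *Papss2*, which makes the sulfate donor, fell by 0.42 (limma adjusted p = 0.0071). *Sult2a8*, a liver sulfotransferase of bile acids, fell by 2.19 (limma adjusted p = 0.022), with *Ppara*-/- mouse 1 at 6.44 against 3.52 to 4.80 in the other *Ppara*-/- livers, and *Ppara*+/+ mouse 6 at 4.61 against 5.98 to 7.42 in the other *Ppara*+/+ livers.

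Of the steroid-hydroxylating cytochromes P450, 1 of 10 was called lower, with a median of -0.25. This was *Cyp39a1*, which hydroxylates oxysterols and fell by 0.30 (limma adjusted p = 0.047). The differences of 9 of the 10 were negative, and some that were not called were larger than that of *Cyp39a1*. Of 4 steroid reductases and their electron donors none was called by limma, and those with the smallest p were *Srd5a3*, at -0.10 (limma adjusted p = 0.21), and *H6pd*, at 0.13 (limma adjusted p = 0.33). Of 10 steroid receptors and binding proteins, the glucocorticoid receptor gene *Nr3c1* rose by 0.30 (limma adjusted p = 0.0083), the mineralocorticoid receptor gene *Nr3c2* fell by 0.29 (limma adjusted p = 0.037) and 8 were not called, with a median of -0.001. Several of these calls did not hold with 1 liver fewer. Those of *Hsd17b6*, *Sult2a8*, *Nr3c2* and *Hsd3b3* were each lost in 8 of 12 omissions of a single liver, that of *Cyp39a1* in 10 and that of *Akr7a5* in 4. Omission of *Ppara*+/+ mouse 3, the liver with the adrenal genes, was among the losses for *Hsd17b6*, *Sult2a8*, *Cyp39a1* and *Nr3c2*, with differences of -0.93, -2.02, -0.29 and -0.25.

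**Figure D5:**
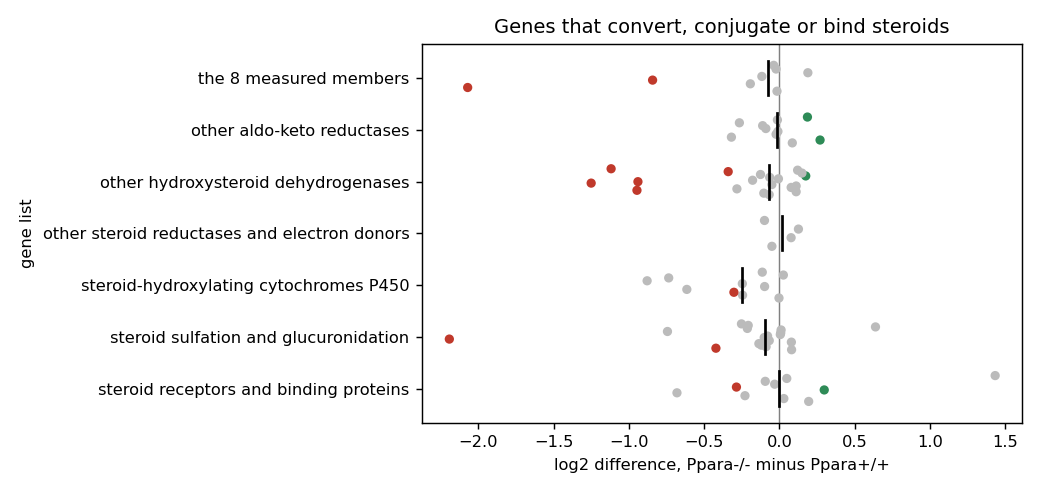
Log2 difference of each measured gene in the enzyme list and the 6 lists of related genes. Red points were called lower, green points higher and grey points neither, and black lines are list medians, from -0.25 for the cytochromes P450 to 0.01 for the reductases and electron donors.

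Markers of other cells moved with genotype in part, and their counts are likewise to be read beside 3.82% of all genes called lower and 3.42% higher. Of the 9 markers of steroid-making cells, 2 were called lower and 0 higher. These were *Mrap* and *Cyp17a1*, and neither was highest in *Ppara*+/+ mouse 3, the liver with the adrenal genes. *Mrap*, a partner protein of the corticotropin receptor, was at 6.74 to 7.23 in *Ppara*-/- and 7.76 to 8.36 in *Ppara*+/+ livers, and fell by 1.16 (limma adjusted p = 7.8e-06). *Cyp17a1*, which makes androgen precursors, fell by 1.11 (limma adjusted p = 0.040), and without *Ppara*+/+ mouse 3 these values were -1.18 (limma adjusted p = 2.7e-05) and -1.08 (limma adjusted p = 0.080). The *Cyp17a1* call was lost in 8 of 12 omissions of a single liver. The enzymes that define the adrenal cortex, *Cyp11b1* and *Cyp21a1*, reached at most 4.97 and 5.52 in the 11 other livers. Of 7 macrophage markers *Csf1r* and *Cd5l* were called higher, and 3 of the 7 had negative differences that were not called. The largest of these was that of *Vsig4*, at -0.25 (limma adjusted p = 0.15). Of 4 hepatoblast markers *Dlk1* was called higher, and of 6 stellate cell markers *Reln* was called higher and *Des* lower. No marker of erythroid cells (7), granulocytes (8), endothelium (6), cholangiocytes (3) or megakaryocytes (4) was called by limma. The part of any of these cells in the enzyme differences was not tested.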

How the data were processed

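Total RNA of whole livers was extracted with TRIzol and silica columns, checked for integrity and hybridised to Affymetrix Mouse Gene ST arrays, 1 per liver. The deposited log2 values come, per the labels, from RMA, which removes background, equalises the arrays and combines probes by probeset. For RMA no version, and for the data no genome build, is given in the sources used here. Arrays have no read depth.

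The table held 35556 probesets, of which 21789 had 1 gene symbol, 1621 several and 12146 none in the platform's probe table, and 21698 matched GRCm38.p6 by gene ID. For each gene the single-symbol probeset with the highest mean was taken, with no filter on dim signals, giving 19938 genes. Livers were grouped by the genotype in the labels and named by the mouse number of the title. Since some livers shared a litter, p-values may be too small.

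The genotypes were compared with limma 3.58.1 (lmFit and eBayes, two-sided, R 4.3.3) without covariates, with Benjamini-Hochberg adjustment over all genes at a threshold of 0.05. Single values were tested by exact permutation over 924 assignments of the livers. Tables and figures used Python 3.11.15, pandas 2.3.3 and matplotlib 3.10.9, and the procedure was tested on simulated data. The members and lists were chosen with earlier results of these data known. The genes named were the members, *Ppara*, the called genes of each related list or otherwise at most the 2 with the smallest p, the other Akr1 cluster genes with *Akr1cl*, and the 5 genes most correlated with *Akr1c18*. Cell markers, cluster neighbours and *Serpina6* were named beside these. Alternatives were renewed quantile normalization, a shift to a common median, signal filters, other uses of probesets, a trend with robust fitting, array weights, sex and erythroid scores as covariates, the mouse number and the animal number as blocks, animal numbers in 2 sets of 6, omission of each liver in turn and the exact Mann-Whitney test. Leaving out *Ppara*-/- mouse 1 and *Ppara*+/+ mouse 6 together was added after seeing the data.

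Whether equal mouse numbers pair the livers was checked through their deviations from the genotype means. The correlations were all positive, from 0.0194 to 0.39. For mouse numbers 1 and 3, the livers of both genotypes correlated best with their own number. Since not all correlations were over 0.1, the numbers were not taken as pairs, and a fit with them as a block is given below.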

Additional observations from a re-analysis of the deposited data

Results flagged for a closer look

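In 62 groups of 6 livers examined, for 31 genes, 8 values stood apart from the rest of their group by Dixon's criterion, which chance alone passes in about 1 in 20 groups. Of these, 4 were adrenal genes in *Ppara*+/+ mouse 3, with log2 signals of 7.97 for *Star*, 7.64 for *Cyp11a1*, 8.52 for *Cyp11b1* and 9.05 for *Cyp21a1*. *Akr1c20* was at 9.13 in *Ppara*+/+ mouse 6, below the 9.69 to 10.01 of the other *Ppara*+/+ livers. *Ppara*-/- mouse 1 was at 10.28 for *Papss2*, above the 9.94 to 10.03 of its group, and at 9.57 for *Nr3c1*, below the 9.87 to 9.95 of its group. *Hsd3b7* was at 10.48 in *Ppara*-/- mouse 5, below the 10.65 to 10.75 of the others.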

How the results depend on the processing

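In the 24 alternative limma fits with 10 to 12 livers that held it, *Akr1c18* differed by -2.38 to -1.84 (adjusted p from 8.2e-07 to 0.0026), and *Akr1c20* by -1.10 to -0.68 in 25 (adjusted p from 1.3e-05 to 0.029), so both calls held there. A filter at the 50th percentile of mean signal removed *Akr1c18* and left 1 enzyme called. Within the lowest and the highest animal numbers 1 and 0 enzymes were called lower. *Akr1c18* missed the threshold in the highest, at -1.26, and *Akr1c20* missed it in both, at -0.72 and -0.64; these sets hold 6 livers each. The exact Mann-Whitney test left both uncalled, at -2.07 (adjusted p = 0.060) and -0.84 (adjusted p = 0.077), with 0 enzymes and 0 genes called in either direction, 3686 genes under 0.05 before adjustment (unadjusted p) and none under 0.060 after it. With no overlap, *Akr1c18* already had the smallest p that this test can give with 6 livers a genotype. In these data that p was adjusted to 0.060, since too few genes shared it to pass the adjustment over all genes. The outcome says nothing about the size of either fall. *Akr1c19*, at -0.19, passed in the exact permutation test of the gene alone.

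Signs turned for small differences that limma called in none of its fits: *Akr1c6* at 0.0073 with the animal number sets as a block and 0.20 within the lowest numbers, *Akr1c14* at 0.048 with the block and 4.05e-04 and 0.10 within the lowest and highest, *Akr1c19* at 0.030 within the lowest, and *Hsd17b2* at 0.0037 after renewed quantile normalization and 0.059 within the lowest. Leaving out 1 liver gave -0.073 to 0.049 for *Akr1c14* and -0.065 to 0.0018 for *Sult1e1*.

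Over all genes, 761 were called lower and 682 higher. The counts were 1457 and 1286 with array weights, 449 and 401 with the sex score, 163 and 30 within the lowest numbers, 106 and 117 within the highest, and 1552 and 1529 without *Ppara*-/- mouse 1 and *Ppara*+/+ mouse 6. With the animal number sets as a block 422 were called higher. Leaving out 1 liver gave 447 to 1147 lower and 384 to 1374 higher, the highest of both without *Ppara*-/- mouse 1. With the mouse number as a replicate block, the livers sharing only a number, 823 were lower and 796 higher, *Akr1c18* kept an adjusted p of 9.8e-04 and *Akr1c20* one of 0.012, and 5 of 12 livers correlated best with their own number. Some calls of related genes were lost in at least 1 alternative limma fit with 10 to 12 livers. These were the calls of *Cyp39a1*, *Hsd17b6*, *Hsd3b3*, *Nr3c2*, *Sult2a8*, *Akr7a5* and *Akr1b10*. The exact Mann-Whitney test, which called 0 genes, left the remaining related genes uncalled as well. Apart from the settings named, the cause of these shifts was not tested.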

Other observations

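*Serpina6*, which encodes the corticosteroid-binding globulin of blood and was chosen after its values were seen, had the largest positive difference of the related genes, 1.43 (SE 0.53), but did not pass the threshold (limma adjusted p = 0.12). Its log2 signal was 9.11 in *Ppara*-/- mouse 1 and 10.66 to 11.56 in the other *Ppara*-/- livers. In *Ppara*+/+ livers it was 8.39 to 9.09 in mice 1 to 4, 10.43 in mouse 5 and 11.48 in mouse 6. *Hsd17b6* ran the other way, at 10.17 in *Ppara*-/- mouse 1 against 8.78 to 9.71 in the others, and at 9.42 in *Ppara*+/+ mouse 6 against 10.24 to 10.80 in the others. In both genes *Ppara*-/- mouse 1 was nearest to the *Ppara*+/+ livers, and *Ppara*+/+ mouse 6 lay within the range of the other *Ppara*-/- livers.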
